A study of Mus musculus with 3 samples.

Results

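The genes described here have a clear signal in mouse liver and differed more than 1.5-fold between an array of livers taken 60 min after insulin and an array of livers taken 60 min after PBS. Each gene was represented by the brightest of its probe sets annotated with exactly 1 symbol, and was counted as well expressed when the brighter of both arrays reached a log2 signal of 6. Of 22180 genes so represented, 4901 were well expressed, and 33 of these are drawn in the study's heat map of its top-ranked genes and were set aside. Among the remaining 4868 genes, 150 (3.08%) were higher on the insulin array and 73 (1.5%) were lower, which gives 223 genes in all (4.58%). The ratios chose these genes, so they are given as a description. With 1 array a condition the differences have no replicate check, no error and no test.

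The mice were WT males of strain C57BL6/J at 6 months of age, injected intraperitoneally with PBS or with recombinant human insulin at 0.75 U/kg body weight after 19 h of fasting. Hepatic RNA of several mice was mixed for each array, 7 or 5 of them depending on the source, so the animals' spread cannot be measured. The remaining array of the series held liver RNA of mice of the same strain and age taken 60 min after glucagon (50 ng/g body weight), and no fasting time is stated for them. Expression was measured on Affymetrix Mouse Gene 2.0 ST arrays as log2 signals, so a difference of 1 between arrays is a 2-fold ratio. The labels name liver as the source but ovarian RNA in the extraction step. Of 14 measured hepatocyte markers 13 were well expressed, among them the plasma protein genes Alb (13.18 on the PBS array), Ttr (12.64) and Apoa2 (12.49), whereas 0 of 15 measured ovary markers were, the highest of their signals being 3.46 with PBS and 3.59 with insulin.

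Insulin acts on hepatocytes through its receptor, the insulin receptor substrates, phosphatidylinositol 3-kinase and Akt. Akt holds the FoxO transcription factors outside the nucleus and so restrains genes such as Igfbp1 and G6pc, while a parallel branch through Ras and the MAP kinases starts immediate-early transcription. In the fed liver insulin is also known for favouring fatty acid and sterol synthesis, glycogen storage and protein synthesis. Glucagon acts on the same cells mainly through cAMP and the factor CREB.

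The median log2 ratio of the 4868 genes was 0.03 as deposited, and the central 95% lay between -0.48 and 0.64. Above 0 were 57.6% of the ratios as deposited and 50.1% after quantile normalization of the arrays, so the lean towards higher ratios depended on the scaling. The higher genes had log2 ratios between 0.59 and 1.43 with a median of 0.75, and 30 of them (0.616% of the genes compared) exceeded 2-fold. The lower genes had ratios between -1.61 and -0.59 with a median of -0.69, and 5 (0.103%) were more than 2-fold lower. A gene near the signal minimum can enter only through its brighter array, so part of the count rests on dim values. Both arrays reached the minimum for 86 of the higher and 47 of the lower genes. Among the lowest ratios that passed the upper limit were those of Paics (8.27 with PBS and 8.85 with insulin), Mpzl2 and Pptc7, and the genes just short of it were Cpsf4, Nectin3 and Atf4 (6.70 and 7.29). At the lower limit Fgl1 (11.05 with PBS and 10.47 with insulin), Smagp and Saa2 were just inside, and F2r, Pid1 and Slc45a3 just outside. Liver is a mixture of cells, and in bulk RNA fewer cells of a type and less RNA per cell cannot be told apart.

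**Figure D1:**
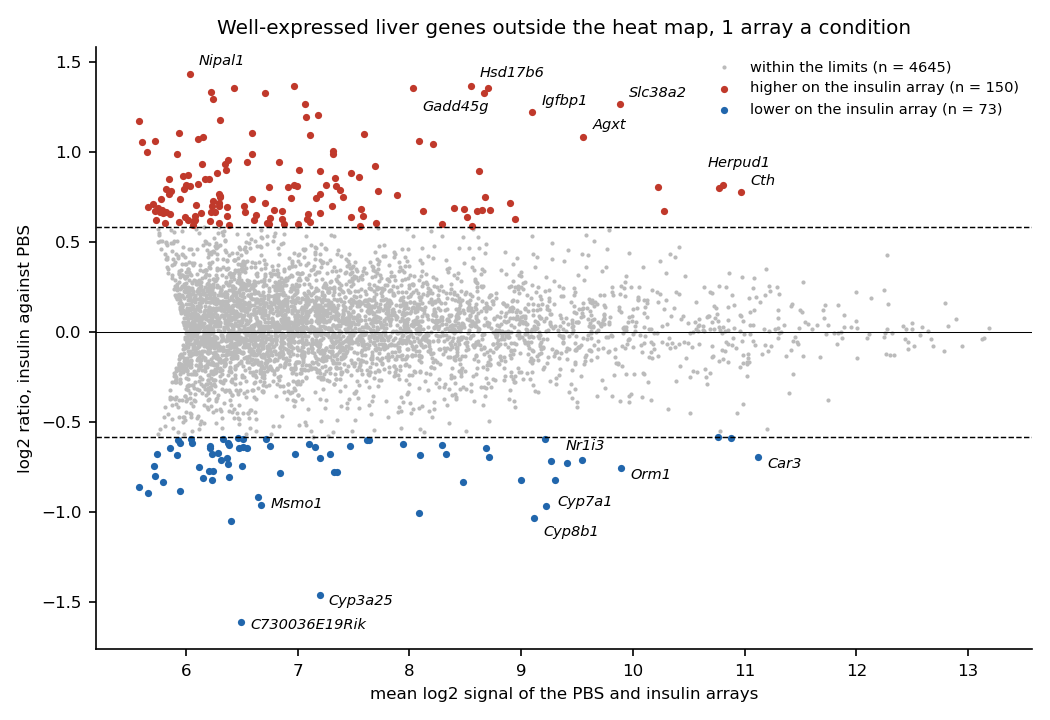
Log2 ratio of the insulin array against the PBS array (y axis) by the mean log2 signal of both arrays (x axis) for the 4868 well-expressed genes outside the heat map, 1 point a gene, with dashed lines at 1.5-fold. The 150 higher and 73 lower genes lie outside the dashed lines, and most of the higher ones are on the dim side of the plot.

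Chaperone genes of the cytosol and of the endoplasmic reticulum (ER) were among the higher genes. Cytosolic chaperones fold new and damaged proteins and are controlled by the heat shock factor HSF1, which binds inverted repeats of GAA, the heat shock elements. All 26 well-expressed genes of a cytosolic chaperone list had a ratio above 0 under each scaling tried. The list's median log2 ratio was 0.25, and 6 genes passed the upper limit and 0 the lower. Of the 6, Hspa1b, Hsp90aa1 and Dnajb1 were below 6 with PBS and passed the signal minimum only through the insulin array, where they are high. The list was chosen with earlier results known, so the shared sign depends on which genes it holds. It includes Bag3 but not the related well-expressed genes Bag1 (ratio -0.04), Bag4 (-0.22), Bag5 (-0.47) and Bag6 (0.03). Of 25 ER chaperone and unfolded protein response genes, 23 had a ratio above 0, the median was 0.30, and 6 passed the upper limit and 0 the lower. Over all 4868 genes the median was 0.03, with 3.08% past the upper limit and 1.5% past the lower. The lists are described here without a claim that they stand apart.

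Promoters from RefSeq (build GRCm38.p6) are shown for 6 of these genes, from 130 bases before to 20 bases after the start, because they hold the element by which each chaperone group is usually described. Capitals mark a pair of GAA units in inverted orientation, GAANNTTC or TTCNNGAA, in the first 3 sequences. They are from chr17:34959219-34959368 (minus strand, Hspa1b), chr5:149636317-149636466 (minus strand, Hsph1) and chr9:18292137-18292286 (plus strand, Chordc1).
Hspa1b: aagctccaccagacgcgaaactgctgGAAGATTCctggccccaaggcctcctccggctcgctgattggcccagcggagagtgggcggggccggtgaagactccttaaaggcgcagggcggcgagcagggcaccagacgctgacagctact
Hsph1: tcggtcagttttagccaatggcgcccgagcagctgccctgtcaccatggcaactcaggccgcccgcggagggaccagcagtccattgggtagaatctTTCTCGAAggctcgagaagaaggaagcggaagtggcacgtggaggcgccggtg
Chordc1: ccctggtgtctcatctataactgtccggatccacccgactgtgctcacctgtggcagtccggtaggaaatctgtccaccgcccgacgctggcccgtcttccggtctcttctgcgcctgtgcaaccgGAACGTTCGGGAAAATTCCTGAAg
In the next 3, capitals mark the ER stress response element, CCAAT and CCACG with 9 bases between them, on either strand. They are from chr2:34771960-34772109 (Hspa5), chr15:88819516-88819665 (Creld2) and chr19:6046446-6046595 (Syvn1), all on the plus strand.
Hspa5: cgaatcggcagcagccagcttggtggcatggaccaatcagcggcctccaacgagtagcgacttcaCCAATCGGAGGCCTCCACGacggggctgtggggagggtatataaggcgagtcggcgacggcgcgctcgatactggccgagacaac
Creld2: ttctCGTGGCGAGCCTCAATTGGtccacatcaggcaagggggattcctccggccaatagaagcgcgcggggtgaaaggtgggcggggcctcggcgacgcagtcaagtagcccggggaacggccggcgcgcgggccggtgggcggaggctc
Syvn1: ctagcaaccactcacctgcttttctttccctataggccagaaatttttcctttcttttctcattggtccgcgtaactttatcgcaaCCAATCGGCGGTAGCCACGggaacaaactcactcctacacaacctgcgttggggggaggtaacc

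The GAA pair was found between 250 bases before and 50 after the start in 4 of the 5 higher cytosolic chaperone genes with a promoter entry and in 9 of the 23 such genes of the list, against 15.0% of the 120 higher genes with an entry, 11.5% of 3891 well-expressed genes and 15.1% of all 27025 promoters. Chordc1 had 4 overlapping pairs within its window. The ER stress response element was found in 3 of the 5 higher ER genes with an entry and in 8 of 21 such genes of the list, against 0.308% of the well-expressed genes and 0.13% of all promoters. A match of letters is a description of the window and not evidence of a bound factor, and both lists were written with the groups' known regulators in mind.

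Of the cytosolic chaperones, Hspa1b, an inducible Hsp70 gene, had a log2 signal of 5.56 with PBS, 6.89 with insulin and 8.69 with glucagon, a 2.52-fold ratio for insulin. Its promoter above holds 1 GAA pair. Its near-identical neighbour can share sequence with this probe set, so the signal is not certain to belong to Hspa1b alone. Hsph1, which encodes an Hsp110 nucleotide exchange factor of Hsp70, was at 7.04, 8.14 and 8.66 in the same order (2.14-fold). Chordc1, a partner of Hsp90, was at 6.08, 7.02 and 7.52 (1.93-fold). In these 3 genes the glucagon array was the highest and the PBS array the lowest. The co-chaperones Bag3 (1.76-fold) and Dnajb1 (1.59-fold) and the inducible Hsp90 gene Hsp90aa1 (1.73-fold) also passed the limit. The constitutive Hsp70 gene Hspa8 was within it, at 10.71 and 10.96, as were the mitochondrial chaperone gene Hspd1 (9.21 and 9.46) and the chaperonin subunit gene Cct6a (8.78 and 9.04). The list's median was 0.46 for glucagon against PBS, a comparison that uses the same PBS array. The signal minimum was not read on the glucagon array.

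In the ER, Creld2, a disulphide isomerase-like protein, was at 7.55 with PBS, 8.61 with insulin and 8.67 with glucagon (2.08-fold). Herpud1, part of the machinery that returns misfolded proteins to the cytosol, was at 10.37, 11.17 and 11.30 (1.74-fold). Syvn1, the ubiquitin ligase of the same machinery, was 1.67-fold higher. Hspa5, the main Hsp70 of the ER also called BiP, was at 8.20, 8.84 and 8.78 (1.56-fold), and its partners Dnajb9 (1.61-fold) and Hyou1 (1.60-fold) passed the limit as well. Of the sensors and factors of the response, Xbp1 had 8.63 with PBS and 8.57 with insulin, on a probe set that does not separate its spliced form. Hsp90b1 (10.94 and 11.24) and P4hb (10.84 and 10.85) were within the limits. The amino acid response shares its trigger phosphorylation with the ER response. It had 1 of 15 well-expressed genes past the upper limit, the cystathionine lyase gene Cth, beside 3.08% of all genes compared. Its central factor Atf4 was just short of the limit at a ratio of 0.58.

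**Figure D2:**
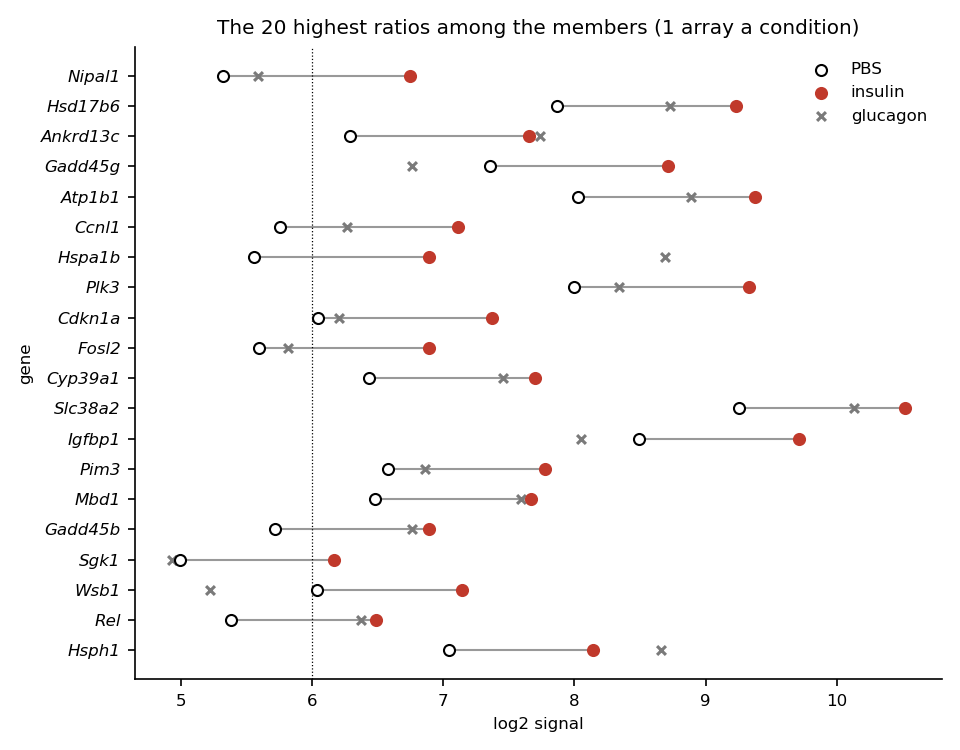
Log2 signal (x axis) of the 20 genes with the highest ratios (y axis) on the PBS array (open circles), the insulin array (red) and the glucagon array (crosses), 1 array a condition; the dotted line is the minimum of 6. The glucagon array lies above the insulin array for Hspa1b, Hsph1 and Ankrd13c and below the PBS array for Gadd45g, Igfbp1, Sgk1 and Wsb1.

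The highest ratio of all was that of Nipal1, a magnesium transporter gene, at 5.32 with PBS, 6.75 with insulin and 5.59 with glucagon (2.69-fold). Hsd17b6, a steroid and retinol dehydrogenase, followed at 7.87, 9.23 and 8.73 (2.57-fold). Ankrd13c was at 6.29, 7.65 and 7.74. Atp1b1, the beta subunit of the sodium pump, was at 8.03, 9.38 and 8.89. In these genes the insulin array was well above the PBS array, and the glucagon array lay near PBS only for Nipal1. The methyl-CpG binding protein gene Mbd1 (1.19 on the log2 scale), the SOCS box gene Wsb1 (1.10) and the NF-kappaB subunit gene Rel (1.10) were also among the 20 highest.

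Immediate-early genes, which answer a stimulus without new protein synthesis, were also among the higher ones. Of 20 well-expressed immediate-early and feedback genes, 8 were past the upper limit and 1 past the lower, beside 3.08% and 1.5% of all genes compared. Their median log2 ratio was 0.51, and 0.03 for glucagon against the same PBS array. The signal minimum was read on the PBS and insulin arrays only, so the insulin and glucagon medians are not on equal terms. Fosl2, Gadd45b and Nfil3 were below 6 with PBS and passed the minimum only through the insulin array, where they are high. The heat map holds further immediate-early and feedback genes, which are not counted here. Gadd45g, a stress sensor that slows the cell cycle, was at 7.36 with PBS, 8.71 with insulin and 6.77 with glucagon (2.56-fold). Plk3, a stress kinase of the polo family, was at 8.0, 9.33 and 8.34 (2.51-fold). Cdkn1a, the cyclin-dependent kinase inhibitor p21, belongs to a separate list of p53 targets and growth arrest genes, of which 2 of 11 were higher, Plk3 and Cdkn1a, and 0 lower (median 0.20). It was at 6.04, 7.37 and 6.20 (2.51-fold). For each of the 3, insulin stood apart from both other arrays. The AP-1 subunit gene Fosl2 (2.45-fold), the bZIP repressor gene Nfil3 (2.10-fold), Gadd45b (2.26-fold) and the matricellular gene Ccn1 (1.76-fold) were also higher. Gadd45b differed from Gadd45g on the glucagon array, with 5.72 for PBS, 6.90 for insulin and 6.77 for glucagon. Jun (6.84 and 7.16), Junb (6.34 and 6.69) and Errfi1 (11.01 and 11.20) were within the limits. The exception was Zfp36l2, which encodes an mRNA-destabilizing zinc finger protein, at 7.23 and 6.45 (1.72-fold lower).

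Several higher genes are known targets of cAMP, glucocorticoids or FoxO, and many stand in more than 1 of these lists. Of 20 well-expressed cAMP and PGC-1alpha related genes 8 were higher and 1 lower (median 0.48). Of 19 glucocorticoid receptor targets 6 were higher and 1 lower (median 0.32), and of 21 FoxO targets 4 were higher and 0 lower (median 0.20). Among all genes compared 3.08% were higher and 1.5% lower. Of the higher genes counted, Fosl2, Nfil3, Gadd45b and Sgk1 were below 6 with PBS and passed the signal minimum only through the insulin array, where they are high. Igfbp1, a secreted IGF-binding protein that FoxO factors activate and insulin is known to repress, was at 8.49 with PBS, 9.71 with insulin and 8.05 with glucagon (2.33-fold). The insulin array was the highest of the 3 for this gene. The coactivator gene Ppargc1a was at 6.22, 6.96 and 7.10 (1.67-fold). The Krüppel-like factor gene Klf15, a regulator of amino acid breakdown, was at 8.15, 8.83 and 8.60 (1.60-fold). The gluconeogenic genes G6pc (10.71 and 10.81) and Pck1 (12.13 and 12.36) were within the limits.

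Among glucocorticoid targets, the kinase gene Sgk1 was at 5.0 with PBS, 6.17 with insulin and 4.93 with glucagon (2.25-fold), and the kinase gene Pim3 at 6.58, 7.78 and 6.86 (2.30-fold). For both, insulin was the high array. The clock gene Per1 was 1.72-fold higher, while Fkbp5 (6.68 and 6.95), Tsc22d3 (5.64 and 6.13) and Tat (12.06 and 12.49) were within the limits. Lcn2, a lipocalin of the acute phase, was the lower one, at 8.44, 7.75 and 5.73. Of the deiodinase gene Dio1, the lower gene of the cAMP list, the signals were 8.90, 8.06 and 8.77.

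Of 21 well-expressed genes of an insulin signalling list, 0 passed either limit as deposited, beside 4.58% of all genes compared. After median centring 1 of the 21 passed the upper limit. The log2 ratios of the 21 genes ran from -0.50 to 0.57 as deposited. Their median was 0.04 as deposited and -0.0086 after lowess centring. The receptor gene Insr was at 8.45 with PBS and 8.42 with insulin, Akt2 at 7.27 and 7.25, and Foxo1 came closest to the upper limit at 7.69 and 8.27. The list is incomplete, since 1 further measured gene of it is drawn in the heat map and was set aside for that reason. The paper names the insulin receptor substrate gene Irs2 among the genes that insulin raised in WT liver. The count of 0 therefore does not mean that no gene of the pathway changed.

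Genes of amino acid transport and metabolism were among the higher genes as well. Of 24 well-expressed nutrient carriers, 6 were higher and 0 lower (median 0.15). Of 56 genes of amino acid breakdown and the urea cycle, 3 were higher and 0 lower (median 0.12). Among all genes compared 3.08% were higher, and the count for amino acid breakdown lies near that share. Slc38a2, the sodium-coupled neutral amino acid transporter SNAT2, was at 9.26 with PBS, 10.52 with insulin and 10.13 with glucagon (2.40-fold). Slc3a1, a subunit of the cystine and dibasic amino acid transporter, was at 7.69, 8.73 and 7.62 (2.06-fold). Slc25a25, a mitochondrial carrier of ATP-magnesium, was at 8.18, 9.07 and 7.07 (1.86-fold). Thus Slc3a1 and Slc25a25 were high only on the insulin array, and Slc38a2 on both hormone arrays. The ornithine carrier gene Slc25a15 (9.82 and 10.63), the glutamate carrier gene Slc25a22 (8.63 and 9.26) and the phosphate transporter gene Slc20a1 (6.30 and 6.92) made up the 6. Slc38a4 (11.65 and 11.79) and Slc38a3 (11.44 and 11.56) were within the limits.

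Of the enzymes, Agxt, which converts glyoxylate to glycine in peroxisomes, was at 9.02 with PBS, 10.10 with insulin and 9.56 with glucagon (2.12-fold). Got1, the cytosolic aspartate aminotransferase, was at 10.39, 11.21 and 10.20 (1.76-fold), and Cth, which makes cysteine from cystathionine, at 10.58, 11.36 and 10.97 (1.71-fold). All 3 were highest with insulin. Mat1a (12.71 and 12.88), Hpd (12.03 and 12.22) and the urea cycle gene Cps1 (11.89 and 12.11) were within the limits. Mfsd2a, a transporter of lysophospholipids, and the aminotransferase gene Kyat3 were also among the 10 higher genes with the brightest PBS signal, at 9.94 and 10.62 and at 8.54 and 9.25. Of 27 well-expressed genes of glucose metabolism, only Got1 and Ppp1r3b passed the upper limit, beside 3.08% of all genes compared. Ppp1r3b, a glycogen-targeting subunit of protein phosphatase 1, was at 7.78, 8.46 and 8.72, and its dimmer second probe set had a ratio of 0.04. Gapdh (11.59 and 11.61) and Fbp1 (10.95 and 11.14) were within the limits.

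Genes of the nucleolus and of RNA polymerase II control were a further set of higher genes with modest signals. Ribosome biogenesis genes make and fold ribosomal RNA, and 4 of 27 well-expressed ones were higher and 0 lower (median 0.26). These were Nolc1 (5.67 with PBS and 6.61 with insulin), the box C/D snoRNP genes Nop56 (5.88 and 6.81) and Nop58 (6.34 and 7.14), and the nucleostemin gene Gnl3 (6.34 and 7.06). For Nop56, 1 of its other probe sets ran the opposite way, with a ratio of -0.32. Of 36 well-expressed cytosolic ribosomal protein genes 1 was higher (Rps25, 6.76 and 7.42), beside 3.08% of all genes, and 0 of 26 translation factor genes passed a limit. The list of polymerase II pausing, elongation and termination genes was written after the members had been seen, so its count is a description only. In it 9 of 40 were higher and 0 lower (median 0.28), beside 3.08% higher of all genes. Of the 9, Ccnl1, Ccnt1, Pcf11, Gtf2f2, Btaf1 and Ints6 were below 6 with PBS. These passed the signal minimum only through the insulin array, where they are high. Ccnl1, cyclin L1, was at 5.76 with PBS, 7.11 with insulin and 6.27 with glucagon (2.55-fold). The chromatin remodeller gene Chd1 was at 6.56 and 7.46, the P-TEFb inhibitor gene Hexim1 at 6.84 and 7.66, and Ccnt1, the cyclin of P-TEFb, at 5.67 and 6.31. Ppat, the first enzyme of de novo purine synthesis, was at 6.57, 7.66 and 7.42 (2.13-fold), and with Paics it made 2 higher genes of 11 in a purine list that was also added after the members were seen.

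**Figure D3:**
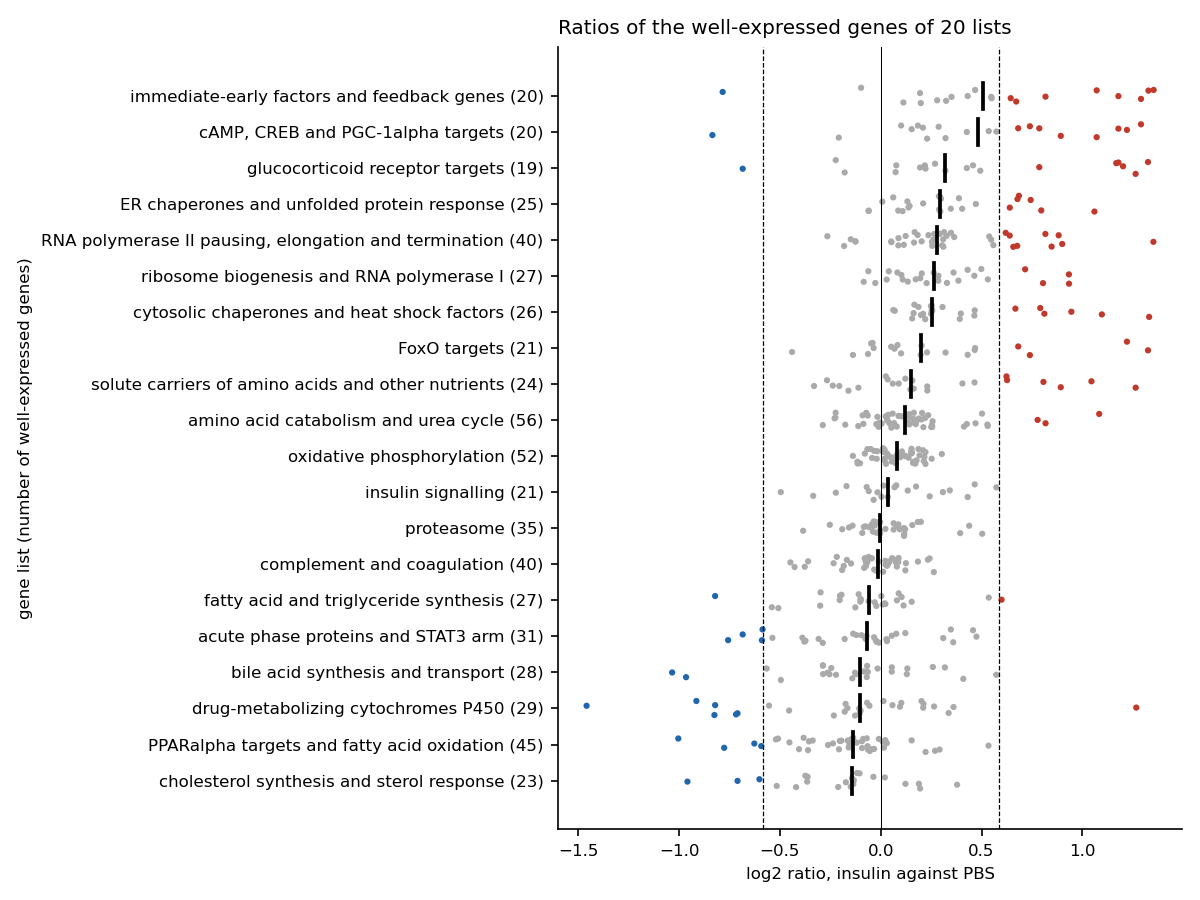
Log2 ratios, insulin against PBS (x axis), of the well-expressed genes of 20 lists (y axis, number of genes in brackets), 1 point a gene, with each list's median as a black bar and dashed lines at 1.5-fold; genes past the limits are red or blue. List medians run from 0.51 for immediate-early genes to -0.14 for cholesterol synthesis, and the oxidative phosphorylation, proteasome and complement lists hold 0 genes past a limit.

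Cytochromes P450, which oxidize drugs, steroids and fatty acids, were among the lower genes. Of 29 well-expressed drug-metabolizing P450 genes 6 were lower and 1 higher, with a median log2 ratio of -0.10. Among all genes compared 1.5% were lower and 3.08% higher. Members of the Cyp2c, Cyp2d, Cyp3a and Cyp4a families are near-identical and can share probes, so a value may belong to a neighbour in part. Cyp3a25 was at 7.93 with PBS, 6.47 with insulin and 7.84 with glucagon (2.75-fold lower). Cyp2b9 was at 7.10, 6.19 and 7.92, Cyp2c50 at 9.41, 8.59 and 9.55, and Cyp2c54 at 9.90, 9.19 and 9.89. In these 4 genes the insulin array was the low one, and the glucagon array was above PBS for Cyp2b9 and Cyp2c50 and close to it for the others. Cyp2d40 (6.64 and 5.82) and Cyp2d9 (9.62 and 8.91) were the other lower genes. The higher one was Cyp39a1, an oxysterol hydroxylase, at 6.43, 7.70 and 7.45. Cyp2e1 (12.84 and 12.74), Cyp2a12 (11.84 and 11.94) and Cyp2f2 (11.20 and 11.41) were within the limits.

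Among genes of bile acid synthesis, Cyp7a1 and Cyp8b1 were lower. Cyp7a1, the rate-limiting enzyme, was at 9.70 with PBS, 8.74 with insulin and 9.01 with glucagon (1.95-fold lower). Cyp8b1, which sets the share of cholic acid, was at 9.64, 8.60 and 9.34 (2.05-fold lower). For both genes PBS was the highest array. As deposited these were the only members among the 28 well-expressed genes of the bile acid synthesis and transport list, whose median was -0.10. Of all genes compared, 1.5% were past the lower limit. After median centring 1 gene of the list was higher and 2 lower, and after quantile normalization 3 were lower. The oxysterol hydroxylase gene Cyp39a1, given above as higher, was counted in the P450 list only. The feedback repressor gene Nr0b2 (6.81 and 6.25) and the nuclear bile acid receptor gene Nr1h4 (8.55 and 8.26) were within the limits, and Slc27a2 was at 11.86 and 11.79.

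Of 23 well-expressed genes of cholesterol synthesis and the sterol response, 18 had a ratio below 0, 3 were past the lower limit and 0 past the upper (median -0.14). Over all genes compared, 2064 of 4868 ratios were below 0 and 1.5% past the lower limit. Msmo1, the sterol C4-methyl oxidase, was at 7.15 with PBS, 6.19 with insulin and 6.87 with glucagon (1.94-fold lower). Nsdhl, which acts beside it on the same methyl groups, was at 6.67, 5.96 and 6.45 (1.64-fold lower). Fdft1, squalene synthase, was at 7.92, 7.31 and 7.76 (1.52-fold lower). All 3 were lowest with insulin. Hmgcs1 (8.12 and 7.70) and the master regulator gene Srebf2 (6.45 and 6.09) lay within the limits. Among 27 well-expressed genes of fatty acid and triglyceride synthesis 1 was higher and 1 lower (median -0.06), beside 3.08% and 1.5% of all genes. Acly, which makes cytosolic acetyl-CoA, was at 7.99 and 8.59, a ratio past the limit as deposited but not after quantile normalization, and the very-long-chain elongase gene Elovl3 at 9.71, 8.89 and 10.13 with PBS, insulin and glucagon. Scd1 (11.46 and 11.36), Fasn (7.09 and 6.97) and Srebf1 (6.31 and 6.01) were within the limits.

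PPARalpha targets and fatty acid oxidation genes showed 36 of 45 ratios below 0, with 4 genes past the lower limit and 0 past the upper (median -0.14). Over all genes compared, 2064 of 4868 ratios were below 0 and 1.5% past the lower limit. Cyp4a31, an omega-hydroxylase, was at 8.59 with PBS, 7.59 with insulin and 8.17 with glucagon (2.01-fold lower). The acyl-CoA thioesterase gene Acot3 (7.74 and 6.96), the peroxisome division gene Pex11a (8.60 and 7.97) and the pantetheinase gene Vnn1 (9.51 and 8.91) were the others. For Acot3, Pex11a and Vnn1 the glucagon signals were 7.95, 8.91 and 9.56, all at or above PBS. Within the limits were the dehydrogenase gene Acadm (11.48 and 11.50), the carnitine palmitoyltransferase gene Cpt1a (10.88 and 10.82) and the receptor gene Ppara (8.69 and 8.53).

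**Figure D4:**
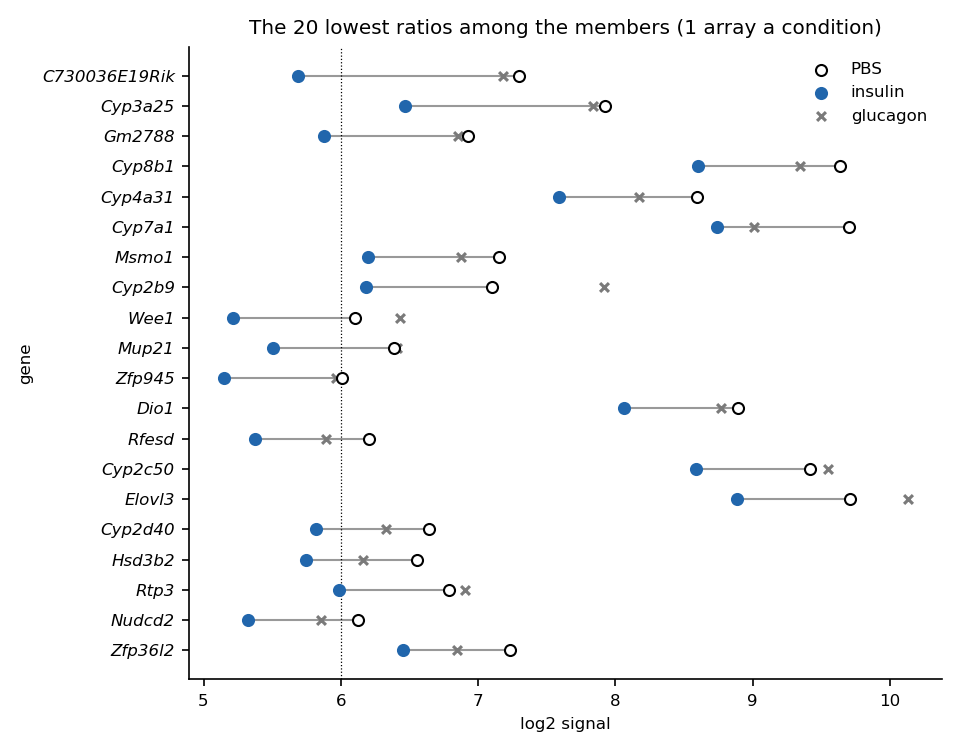
Log2 signal (x axis) of the 20 genes with the lowest ratios (y axis) on the PBS array (open circles), the insulin array (blue) and the glucagon array (crosses), 1 array a condition; the dotted line is the minimum of 6. Insulin is the lowest array for all 20, and glucagon lies above PBS for Cyp2b9, Wee1, Cyp2c50, Elovl3, Rtp3 and, by 0.02, Mup21.

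The lowest ratio was that of the lncRNA gene C730036E19Rik, at 7.30 with PBS, 5.69 with insulin and 7.18 with glucagon (3.05-fold lower). Gm2788, which has no entry in the RefSeq gene table used here, was at 6.93, 5.88 and 6.85. Both were near PBS on the glucagon array. Rfesd, Hsd3b2, Rtp3, Nudcd2 and the zinc finger gene Zfp945 were lower with signals close to the minimum, PBS values between 6.01 and 6.79, and ratios between -0.86 and -0.80. The second probe set of Rtp3 had a ratio of -0.52.

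Of 39 well-expressed liver transcription factors and nuclear receptors, 2 were higher and 3 lower (median -0.03), beside 3.08% and 1.5% of all genes compared. Nr1i3, the xenobiotic receptor CAR that activates Cyp2b genes, was at 9.78 with PBS, 9.05 with insulin and 9.84 with glucagon (1.66-fold lower). The T-box factor gene Tbx3 was at 6.74, 6.01 and 6.22, and the pioneer factor gene Foxa2 at 6.80, 6.15 and 6.64. Insulin was the low array for each. The higher genes were Klf15 and the retinoid X receptor gene Rxrb (5.35 and 6.06). Hnf4a (10.05 and 10.21) and Rxra (8.99 and 8.92) were within the limits.

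Acute phase proteins are plasma proteins that hepatocytes make under interleukin signals. Of 31 well-expressed genes 4 were lower and 0 higher (median -0.07), beside 1.5% and 3.08% of all genes compared. Orm1, orosomucoid, was at 10.28 with PBS, 9.52 with insulin and 9.63 with glucagon (1.69-fold lower). Saa2, serum amyloid A, was at 11.18, 10.59 and 8.21, and Fgl1 at 11.05, 10.47 and 10.03. The paper lists Fgl1 among the genes that insulin lowered in WT liver and also measured it by RT-qPCR in RNA of individual mice. Lcn2, given above, was the other lower gene, and for Saa2 and Lcn2 the glucagon array was far below both others. Saa2 and Fgl1 were at the limit, and 2 of the 4 genes passed it after median centring. Saa2 and Orm1 have near-identical copies, and a probe set shared by Saa1 and Saa2, outside the count, was at 11.32 and 10.40. Hpx (12.58 and 12.60), Hp (12.51 and 12.42) and Fgb (12.26 and 12.25) were within the limits, and of 40 complement and coagulation genes 0 passed either limit. The only members from cytokine and interferon lists were the adhesion gene Vcam1 (6.36 and 7.30), the chemokine gene Cxcl9 (5.42 and 6.27) and, lower, the peptide transporter gene Tap1 (6.63 and 6.03).

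Hepatocytes differ along the lobule, with urea synthesis and gluconeogenesis favoured near the portal vein and P450s, bile acid and glutamine synthesis near the central vein. All 16 well-expressed periportal markers had a ratio above 0 under each scaling tried, with a median of 0.26, 2 past the upper limit and 0 past the lower. Among all genes compared 3.08% were past the upper limit. Of 20 pericentral markers 17 were below 0, beside 2064 of all 4868 genes, and their median was -0.23. Of these markers 5 were past the lower limit, beside 1.5% of all genes, and 0 past the upper. For glucagon against the same PBS array the medians were -0.03 and 0.08, over genes chosen by the signal minimum on the PBS and insulin arrays only. The periportal genes past the limit were Hsd17b6 and the aldehyde dehydrogenase gene Aldh1b1 (5.45 with PBS and 6.12 with insulin). The pericentral genes were Cyp7a1, Cyp2c50, Tbx3, Cyp2c54 and the carbonic anhydrase gene Car3, at 11.47 with PBS, 10.78 with insulin and 11.45 with glucagon (1.62-fold lower). Defining markers were within the limits, with Glul, glutamine synthetase, at 10.80 and 10.58, Cyp2e1 at 12.84 and 12.74, and the periportal Cyp2f2 at 11.20 and 11.41. Several of these genes also stand in the bile acid, P450 or amino acid lists, so the lists are not separate observations.

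**Figure D5:**
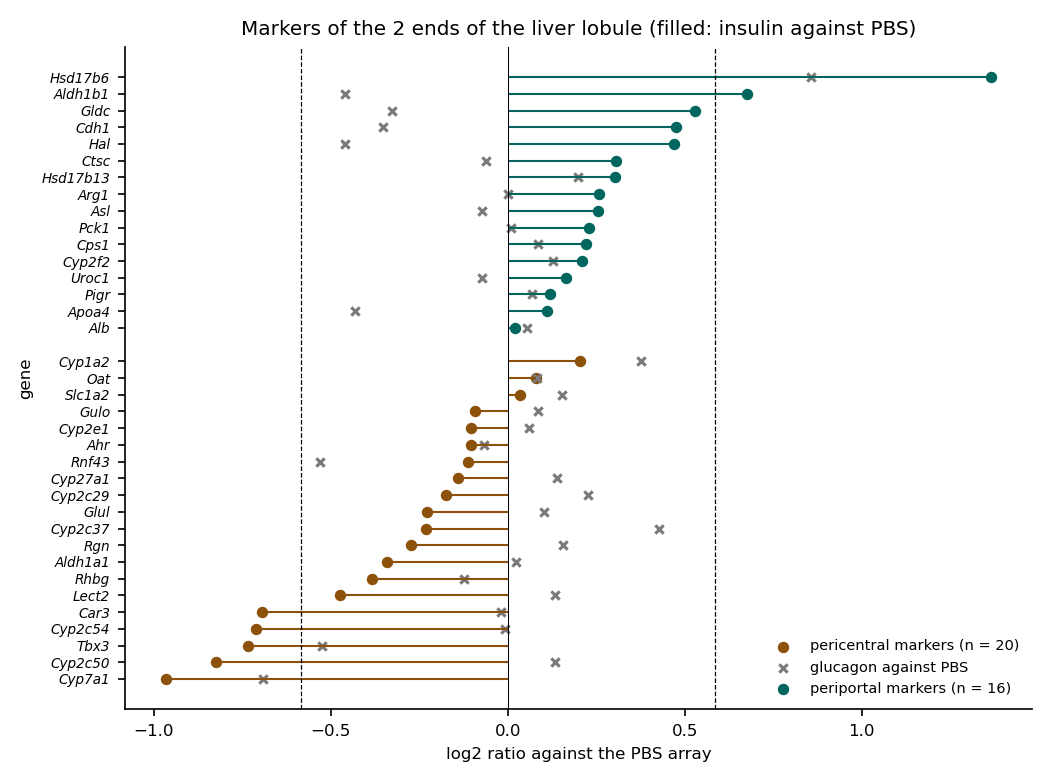
Log2 ratio against the PBS array (x axis) of the 16 periportal (green) and 20 pericentral (brown) well-expressed markers (y axis), filled circles for insulin and crosses for glucagon, with dashed lines at 1.5-fold. For insulin the periportal median is 0.26 and the pericentral median -0.23, and Cyp1a2, Oat and Slc1a2 are the pericentral markers above 0.

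Male liver expresses a set of genes that the pulsatile pattern of growth hormone maintains through STAT5b. Of 18 well-expressed male-biased genes 16 had a ratio below 0, 3 were past the lower limit and 0 past the upper (median -0.25). Of all 4868 genes, 2064 were below 0, 1.5% past the lower limit and 3.08% past the upper. After quantile normalization 14 of the 18 were below 0, beside 2428 of 4880 genes. The 3 lower genes were Elovl3, Cyp2d9 and Mup21, a major urinary protein gene, at 6.39 with PBS, 5.50 with insulin and 6.41 with glucagon. Mup genes are near-identical, and the bright Mup20 was at 12.08 and 11.93. Of 7 well-expressed female-biased genes, Abcd2, a peroxisomal fatty acid transporter, was higher (6.79 and 7.54), and Cyp2b9 and Acot3 were lower. In the growth hormone and IGF list Igfbp1, Igfbp3 (5.88 and 6.61) and the phosphatase gene Ptp4a1 (6.43 and 7.03) were higher of 20 genes, and Mup21 lower, while Igf1 was at 9.23 and 9.29 and the receptor gene Ghr at 7.49 and 7.54.

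Of 15 well-expressed clock genes and outputs, 3 were higher (Nfil3, Per1 and the repressor gene Ciart, 6.81 with PBS and 7.42 with insulin) and 2 lower. Among all genes compared 3.08% were higher and 1.5% lower. After quantile normalization or lowess centring 2 of the 15 were higher. The nuclear receptor gene Nr1d1, also called Rev-erb alpha, was at 7.55, 6.85 and 7.26 with PBS, insulin and glucagon (1.62-fold lower). The cell cycle kinase gene Wee1, an output of the clock, was at 6.10, 5.21 and 6.43 (1.86-fold lower). Dbp (8.47 and 8.50) and Clock (8.25 and 8.28) were within the limits. No hour of injection is stated.

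Markers of other liver cells were also compared, beside the 4.58% of all genes past a limit. Of 11 well-expressed Kupffer cell markers, the scavenger receptor gene Marco was higher (5.94 and 6.65) and the folate receptor gene Folr2 lower (6.69 and 6.07), while the defining Clec4f (7.50 and 7.62) and Vsig4 (7.20 and 7.27) were within the limits. Of 11 endothelial markers, Lyve1, a hyaluronan receptor of sinusoidal cells, was higher at 6.82 with PBS, 7.81 with insulin and 6.91 with glucagon, while Stab2 (6.96 and 6.92) and Clec4g (8.36 and 8.40) were within the limits. Of 5 stellate cell markers 0 passed a limit, and Dcn was at 9.67 and 9.81 and Reln at 6.87 and 6.71. Markers of neutrophils, cholangiocytes and exocrine pancreas were not well expressed, with 0 genes each. Their part in the other ratios was not tested.

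The remaining lists are given by their counts, to be read beside the 4.58% of all genes that passed a limit. Of 52 oxidative phosphorylation genes and 35 proteasome genes 0 passed a limit, with medians of 0.08 and -0.0028, the latter 0.011 after median centring. Of 36 autophagy and lysosome genes 1 was higher, Smcr8 (5.95 and 6.64), an autophagy regulator, and of 30 splicing factors and RNA-binding proteins 1 was higher, Tra2a (5.58 and 6.45). In conjugation 1 of 24 was higher, the nicotinamide methyltransferase gene Nnmt (7.51 and 8.27), and among NRF2 targets 1 of 18 was lower, the carboxylesterase gene Ces1g (9.01 and 8.37). Of 12 TGF-beta and BMP genes Id3 was lower (6.57 and 5.89), of 19 genes of metals and polyamines the zinc transporter gene Slc39a4 (7.07 and 6.44), and of 22 lipoprotein genes the lipase gene Lipg was higher (6.77 and 7.39). Also higher were Usp38 of 17 ubiquitin ligases and deubiquitinases (5.90 and 6.52) and Rgs5 of 11 small GTPase and G-protein regulators (7.33 and 8.11). So were Lncpint of 8 snoRNA host genes and long noncoding RNAs (5.93 and 6.69) and Ccnl1, given above, of 7 cell cycle genes. The lymphocyte, erythroid, and muscle and fat lists held 1 well-expressed gene each, and 0 passed a limit.

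Promoter composition and gene span were not used in choosing the members. Among genes with a RefSeq promoter, the median GC content from 250 bases before to 50 after the start was 63.7% for 120 higher genes, 53.8% for 52 lower genes and 61.3% for 3719 genes within the limits, with quartiles of 57.3 and 69.5, 49.3 and 60.3, and 54.7 and 67.7, and the median ratio of observed to expected CpG was 0.83, 0.42 and 0.79. The median span of the gene was 21.2 kb for the higher, 11.7 kb for the lower and 24.4 kb for the other genes, with quartiles of 8.33 and 40.0, 5.23 and 24.6, and 10.3 and 55.5 kb. The quartile ranges of the higher genes overlapped widely with those of the genes within the limits. Of the higher genes 147 were protein coding, and of the 72 lower genes with a RefSeq entry 66 were. The PBS signal is a term of both the ratio and the filter. The higher genes had a median PBS signal of 6.29 and the lower genes of 7.01, against 7.05 for all 4868, and a gene near the minimum on the PBS array can pass the filter only when it is higher with insulin. At least 1 of the 55 lists held 63 of the higher and 34 of the lower genes, and the others were in none of the 55. The 2 lists added after the members were seen are not part of this count.

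Of the 12 members with several probe sets, 5 had another probe set with a ratio of opposite sign. They were Nop56, the actin gene Actg1 (0.89 on the probe set used and -0.02 to 0.81 on 5 others), the histone gene H4f16 (0.82 and -0.38), the ERK phosphatase gene Dusp6 (0.67 and -0.04) and the mitochondrial ribosomal gene Mrps16 (0.64 and -0.62). The values of these 5 genes depend on which probe set is read.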

How the data were processed

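The authors prepared total hepatic RNA, mixed it across mice, hybridized it to Mouse Gene 2.0 ST arrays and summarised the probe signals by RMA with Affymetrix Expression Console 1.3.0; what they deposited is a table of 41345 probe sets in log2 units, background-corrected and normalized by that method. No genome build is given for the array in the sources used here. These values were used as deposited. Ratios were differences of log2 signals, insulin array minus PBS array, with a limit of 1.5-fold (0.585 on the log2 scale) and a minimum log2 signal of 6 on the brighter array. No test between arrays was made and no error is given, because each condition has 1 array of pooled RNA. For arrays, their number limits the precision.

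The members and the gene lists were chosen with earlier results of these data known. Of 55 lists, 40 cover pathways and 15 cell types or sexes, from general knowledge, and 2 further lists (RNA polymerase II control and purine synthesis) were added after the members had been seen. Genes in several lists stayed in each, and heat map genes were left out of every count (37 of 40 had a named probe set). Named are the 20 highest and 20 lowest ratios, up to 6 members a list and direction with up to 3 other genes of that list, the 3 genes on each side of each limit, the 10 brightest members a direction, defining markers, and members whose probe sets differ in sign. Members of the 2 added lists were named after their values were seen.

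Promoters came from RefSeq tables, taking the first entry of a gene, and motifs were searched on both strands. The calculation was tested on simulated data with known ratios. Alternatives changed 1 choice at a time (probe set, signal minimum, scaling, limit, heat map genes). The tools were pandas 2.3.3, scipy 1.17.1, numpy 2.4.6 and matplotlib 3.10.9 under Python 3.11.15.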

Additional observations from a re-analysis of the deposited data

Results flagged for a closer look

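Probe sets outside the main count also passed the limits, and they are given as values only. Among 1706 well-expressed probe sets that carry no gene name in the annotation used here, 121 were above 1.5-fold on the insulin array and 95 were below, with log2 ratios up to 3.84 and down to -2.94. Among 321 well-expressed probe sets with several gene symbols, 15 were above 1.5-fold and 8 below. The higher ones include 8 distinct probe sets shared by neighbouring zinc finger genes between Zfp965 and Zfp971, with PBS signals between 6.84 and 9.13 and log2 ratios between 0.59 and 0.86. These genes are near-identical, so the 8 probe sets are not separate observations. The lower ones include the probe set shared by Saa1 and Saa2 (11.32 with PBS, 10.40 with insulin and 8.84 with glucagon) and that of Mup10, Mup11, Mup22 and Mup18 (9.69, 8.85 and 9.54). There is no replicate of either array to set these values against.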

How the results depend on the processing

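The counts of 150 higher and 73 lower genes depended on the signal minimum and the limit. They were 86 and 47 with both arrays at the minimum of 6, 79 and 37 with a minimum of 7, 237 and 136 with a minimum of 5, 514 and 415 with no minimum, and 30 and 5 at a 2-fold limit. Averaging the probe sets of a gene, choosing the probe set by both arrays, keeping the heat map genes, counting every probe set with a symbol, median centring, quantile normalization and lowess centring gave 128 to 171 higher and 64 to 90 lower genes. Under the probe set and scaling alternatives all 223 genes kept the sign of their ratio, and at most 22 were no longer past the limit (lowess centring). Of the scalings, lowess centring shifted the median of all genes most, by -0.0352, which is small beside the limit of 0.585. Only 12 of the 223 genes have several probe sets. The kept signs could therefore hardly have come out otherwise and are no check on the ratios. The median of the insulin signalling list turned sign with lowess centring, those of the proteasome and lipoprotein lists with median centring, and those of the NRF2 list and the metal and polyamine list with quantile and lowess centring. No paired analysis was possible because there is a single array for PBS and for insulin.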
